A study of Homo sapiens with 4 samples.

Results

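The ZNF genes described here were those whose symbol begins with ZNF and a digit and for which at least 6 events were listed over the 4 libraries together. Of the 313 ZNF genes listed among 9885 genes, 120 passed this limit (members) and 193 did not. The RNA-seq covered 4 lines of HeyA8, a human ovarian cancer cell line, with 1 library of each. A8 (HEYA8) was the parental line, and the labels name no vector for it. A8i (HEYA8i) carried a lentiviral shRNA against the transcripts of ECM1, a secreted extracellular matrix glycoprotein. A8i-A (HEYA8i-ECM1a) and A8i-B (HEYA8i-ECM1b) were A8i cells with a cDNA of the secreted isoform ECM1a or of the shorter isoform ECM1b. The methods give puromycin selection for A8i, and cell sorting or zeocin or hygromycin for the cDNA lines. The shRNA was therefore shared by A8i, A8i-A and A8i-B and not by A8. No vector or scrambled shRNA library was among the 4, and whether a line came from 1 clone was not given in the sources used here. The comparison of A8i with A8 addressed ECM1 silencing, and those of A8i-A and A8i-B with A8i and with each other addressed the 2 isoforms.

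The values were whole numbers of events per gene, from 0 to 32. What kind of event was counted was not given in the sources used here, so a value is called an event below and is neither an expression level nor a read count. Library totals ran from 20535 events in A8i to 24513 in A8, with 22691 in A8i-A and 24236 in A8i-B. The read depth behind each was unknown. ECM1 itself was listed with 2 events in each library, so the events did not show the silencing. With 1 library per line there was no replicate spread and no test. Intervals below are 95% exact intervals, Poisson for a number and Clopper-Pearson for a ratio, which treat each event as independent and cover no error but that of counting.

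Most ZNF proteins are C2H2 zinc finger proteins, in which each finger folds around a zinc ion held by a pair of cysteines and a pair of histidines, and an array of fingers reads a DNA sequence. Many carry a KRAB box, which binds the corepressor TRIM28. TRIM28 in turn brings the histone methyltransferase SETDB1 and heterochromatin proteins to the bound site, often a transposable element. The genes arose by tandem duplication and are clustered on chromosome 19.

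The members ZNF514, ZNF561 and ZNF266 had the widest separations between libraries described below. A finger of each is shown to make the shared C2H2 frame visible, since these genes encode near-repeats of the same unit. The sequences are coding strand, 5′ to 3′, from GRCh37, with the codons of the metal-binding cysteines and histidines in capitals. The ZNF514 finger is finger 1 of 7, at chr2:95815537-95815614 on the minus strand. The ZNF561 finger is finger 5 of 8, at chr19:9721161-9721238 on the minus strand. The ZNF266 finger is finger 2 of 12, at chr19:9524800-9524877 on the minus strand. Each lies in coding sequence and includes the linker to the next finger. Each is the first finger of its protein that fits a strict spacing pattern followed by a conserved linker. The shared bases below therefore include that linker and are not those of matched positions in the arrays.
ZNF514: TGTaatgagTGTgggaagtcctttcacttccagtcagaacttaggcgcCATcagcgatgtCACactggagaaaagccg
ZNF561: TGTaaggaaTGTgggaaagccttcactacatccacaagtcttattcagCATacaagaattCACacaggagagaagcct
ZNF266: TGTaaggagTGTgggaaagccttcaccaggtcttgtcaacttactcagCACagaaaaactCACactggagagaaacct
The fingers of ZNF266 and ZNF561, which lie close together on chromosome 19, shared 60 of 78 bases. That of ZNF514 on chromosome 2 shared 48 of 78 bases with ZNF266 and 47 of 78 with ZNF561. Such repeats can place a read in more than one gene. The handling of reads with several matches was not given in the sources used here. Of the exonic 50-base sequences, 0.271% of those of ZNF266 and 4.64% of those of ZNF561 occurred in another gene. For ZNF514 this share was 24.7%, as described below. Whether reads were placed in more than one of these genes was not tested.

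ZNF514, a KRAB zinc finger gene at chr2:95787832-95831413 on the minus strand, had 15 events in A8 (8.40 to 24.7) against 4 in A8i (1.09 to 10.2), with 3 in A8i-A (0.619 to 8.77) and 14 in A8i-B (7.65 to 23.5). It was high in A8 and A8i-B and low in A8i and A8i-A, with no value in between. A8i had 26.7% of the A8 number (6.44% to 83.7%), and A8i-A had 21.4% of the A8i-B number (3.95% to 76.8%). A8i-B had 93.3% of the A8 number (41.7% to 207.4%), and A8i-A had 75.0% of the A8i number (11.0% to 443.3%). ZNF514 was selected for this pattern, so these values are a description. The gap between the lower of its 2 high libraries and the higher of its 2 low ones was 10 events. It was the widest for this pattern among all 9885 genes, followed by UBE3A with 8 and by ADGRB1 and SLMAP with 7 each. Of the exonic 50-base sequences of ZNF514, 24.7% occurred in another gene, mostly in a readthrough transcript annotated over the same locus, and its exons overlap those of ZNF2 on the opposite strand. ZNF2 was listed with 0 events in A8 and 2 in A8i, beside 0 in A8i-A and 0 in A8i-B. Strand use in the counting was not given in the sources used here.

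Among the other members, ZNF227, ZNF586 and ZNF706 were most like ZNF514 over the 4 libraries, each with a Pearson r of 0.996, but they differed by 1 event between high and low libraries. ZNF227 and ZNF706 had 3 events in A8, then 2 in A8i, with 2 in A8i-A against 3 in A8i-B. ZNF232 (r = 0.963) had 4, 1, 1 and 5 events in A8, A8i, A8i-A and A8i-B, ZNF300 (r = 0.945) had 5, 1, 2 and 4, ZNF410 (r = 0.931) had 7, 5, 4 and 6, and ZNF76 (r = 0.918) had 6, 3, 3 and 8. ZNF410 is known as an activator of CHD4, the helicase of the NuRD complex. In all, 7 of the 114 other members with any spread had r over 0.9 with ZNF514. The r was not computed outside the ZNF genes, so no share of all genes stands beside this number. An r over 4 libraries is a description of shape only. On the (events + 1) scale, 3 members, ZNF232, ZNF514 and ZNF528, had both A8 and A8i-B at least 2-fold above both A8i and A8i-A, where 3.57% of all genes and 1.7% of all genes with at least 6 events did.

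ZNF561, a KRAB zinc finger gene at chr19:9715356-9731912 on the minus strand, had 9 events in A8 (4.12 to 17.1) against 1 in A8i (0.0253 to 5.57), with 13 in A8i-A (6.92 to 22.2) and 12 in A8i-B (6.20 to 21.0). A8i was low and the 3 other libraries were high. A8i-A had 13.0 times the A8i number, and since that number was 1 event the interval of this ratio was wide, from 195% to 55247% of A8i. A8i had 11.1% of the A8 number (0.253% to 80.2%), and A8i-A and A8i-B differed by 1 event. ZNF266, a KRAB zinc finger gene at chr19:9523105-9546249 on the minus strand with the highest sum of all members, 53 events, had 9 events in A8 (4.12 to 17.1) and 9 in A8i (4.12 to 17.1), beside 16 in A8i-A (9.15 to 26.0) and 19 in A8i-B (11.4 to 29.7). It was high in both cDNA lines and equal in A8 and A8i. A8i-B had 211% of the A8i number (91.0% to 530%) and A8i-A had 178% (74.0% to 456%), intervals that include 100%. The gap of 8 events of ZNF561, with A8i below the 3 others, and that of 7 events of ZNF266, with the 2 cDNA lines above A8 and A8i, were the widest of their patterns among all genes. AMT and DNHD1 followed ZNF561 with 7, and NOP14-AS1 followed ZNF266 with 6. Both cDNA lines were at least 2-fold above both A8 and A8i on the (events + 1) scale in 2 members, ZNF268 and ZNF446, beside 2.64% of all genes and 1.15% of genes with at least 6 events, and ZNF266 did not reach that fold. These 3 patterns were singled out after their values were seen.

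**Figure D1:**
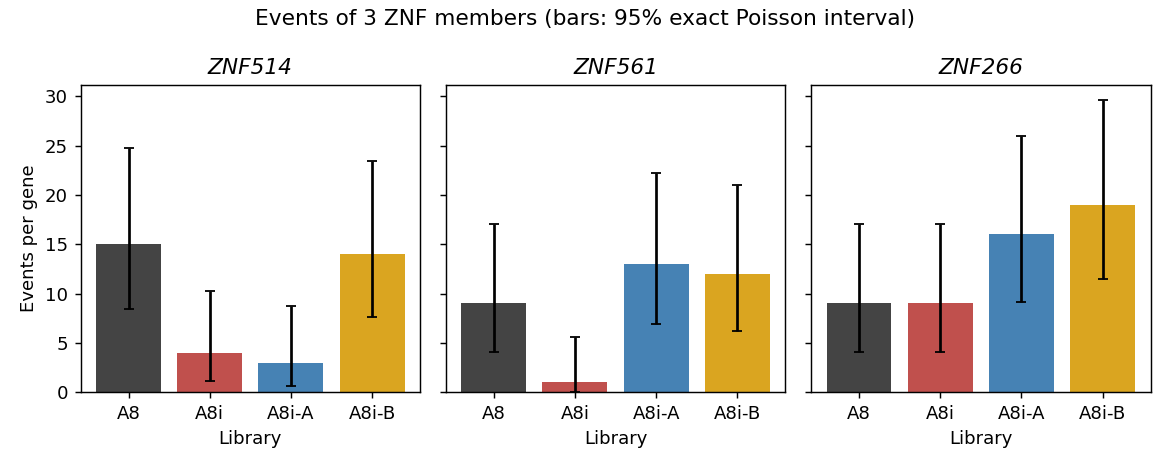
Events per gene (y axis, linear) in each library (x axis) for ZNF514, ZNF561 and ZNF266, with 1 library per bar and 95% exact Poisson intervals. ZNF514 was high in A8 and A8i-B with 15 and 14 events, ZNF561 was low in A8i with 1 event, and ZNF266 was higher in A8i-A and A8i-B with 16 and 19 events than in A8 and A8i with 9 each.

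ZNF561 and ZNF266 lie in a run of ZNF genes on chromosome 19 whose event numbers differed in pattern. From ZNF317 to ZNF846, 10 ZNF genes were listed, of which 8 were members. ZNF559 had 3 events in A8, then 1 in A8i, with 3 in A8i-A against 3 in A8i-B. ZNF426 had 2, 2, 1 and 2 events in the same order. ZNF562, which follows ZNF561, had 5, 4, 1 and 3 events and was lowest in A8i-A, where ZNF561 was highest. ZNF561-AS1, an antisense RNA with exons that overlap those of ZNF562, had 2, 2, 2 and 4 events. ZNF846 had 1, 2, 2 and 2 events, and ZNF317 had 2, 2, 4 and 2. ZNF121, which lies between ZNF426 and ZNF561 and was below the limit, had 1, 0, 2 and 2 events. A8i alone was lowest at ZNF559, ZNF121 and ZNF561, and not at the other genes of the run.

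Over all members the sum of the 4 libraries, which selected them, had a median of 10.5 events and a range of 6 to 53. The 23 members with at least 20 events held 655 of the 1647 events. At the limit itself, 13 members had a sum of 6, such as ZNF586 with 2, 1, 1 and 2 events and ZNF720 with 5, 1, 0 and 0 events in A8, A8i, A8i-A and A8i-B. Just outside it, 15 ZNF genes had a sum of 5, such as ZNF205 with 2, 1, 1 and 1 events and ZNF772 with 3, 0, 0 and 2 events. The limit thus separated genes that differed by 1 event.

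In several of the members with the most events, the libraries differed by few events beside their sum. ZNF195, a KRAB zinc finger gene, had 8 events in A8 against 8 in A8i, with 8 in A8i-A and 9 in A8i-B. ZNF692, which encodes a repressor first described at an AICAR response element, had 10, 8, 11 and 9 events in the same order. ZNF707 had 8, 6, 7 and 7 events. ZNF655, whose product binds the signalling protein VAV1, had 10, 12, 8 and 10 events. In each of these 4 genes the highest and lowest libraries were at most 4 events apart. ZNF185, which despite its symbol encodes a LIM domain protein of the actin cytoskeleton with no C2H2 finger, had 5 events in A8 and 8 in each other library. ZNF384, a nuclear matrix transcription factor and fusion partner in acute leukaemia, was highest in A8i, with 7 events in A8 and 11 in A8i, beside 6 in A8i-A and 8 in A8i-B. ZNF7 was highest in A8 and lowest in A8i-B, with 11, 6, 7 and 4 events.

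**Figure D2:**
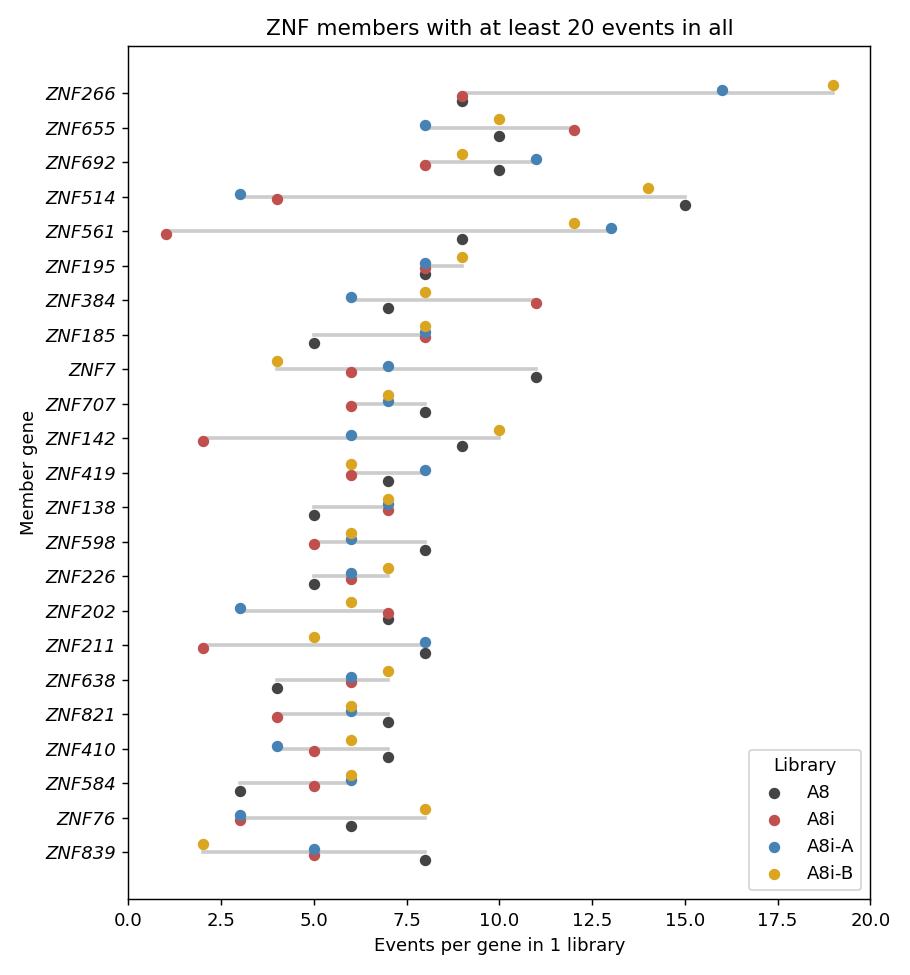
Events per gene in 1 library (x axis) for the 23 members with at least 20 events over the 4 libraries (y axis, ordered by that sum), with 1 point per library and a grey bar from the lowest to the highest. ZNF514, ZNF561, ZNF266 and ZNF142 spread widely, whereas the points of ZNF195 lie between 8 and 9 events.

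In A8i compared with A8, the members together had 343 events (308 to 381) against 438 (398 to 481), or 78.3% (67.8% to 90.4%). All genes together stood at 83.8% (82.2% to 85.3%) and all genes with at least 6 events at 85.8% (84.1% to 87.5%), both within the interval of the members. Per member this was 2.86 events in A8i and 3.65 in A8. A8i was lower than A8 in 58 members, higher in 27 and equal in 35. These were 48.3% lower and 22.5% higher, near the 44.5% and 23.2% of genes with at least 6 events; of all genes, 38.5% were lower and 19.7% higher. On the (events + 1) scale A8 was at least 2-fold above A8i in 27 members (22.5%), where 20.2% of all genes and 13.6% of genes with at least 6 events were. The converse held for 6 members (5.0%), where 8.62% of all genes and 4.86% of genes with at least 6 events were. Scaled to the mean library total, the 2 counts of members were 17 and 8. All genes include many with few events, so those with at least 6 events are the closer comparison. The 193 ZNF genes below the limit had 83 events in A8i and 148 in A8, or 56.1% (42.3% to 73.9%), and the 313 listed ZNF genes together stood at 72.7% (64.0% to 82.5%). All genes stood lower than those with at least 6 events, so genes under the limit as a whole stood lower still. Their ratio was not computed, and no matched set stands beside the 56.1%.

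ZNF142, a gene with a long array of fingers in which variants cause a neurodevelopmental disorder, had 9 events in A8, then 2 in A8i, with 6 in A8i-A against 10 in A8i-B. ZNF211, a KRAB zinc finger gene, had 8, 2, 8 and 5 events in the same order, and the pseudogene ZNF767P had 7, 1, 4 and 5. All 3 were lowest in A8i. In the other direction ZNF384 and ZNF33A were each 4 events higher in A8i than in A8, and ZNF33A had 3, 7, 3 and 5 events. ZNF3 with 4, 7, 3 and 4 events, ZNF302 with 3, 6, 3 and 3, and ZNF529 with 3, 6, 3 and 1 were likewise highest in A8i.

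A8i was at least 2-fold below each of the 3 other libraries in 15 members (12.5%), compared with 6.78% of all genes and 5.84% of genes with at least 6 events. These were ZNF133, ZNF142, ZNF211, ZNF268, ZNF337-AS1, ZNF34, ZNF444, ZNF449, ZNF45, ZNF528, ZNF550, ZNF559, ZNF561, ZNF680 and ZNF767P. In 8 of the 15 A8i was listed at 0, namely ZNF268, ZNF337-AS1, ZNF34, ZNF444, ZNF449, ZNF45, ZNF528 and ZNF680, where a count of 0 allows up to 3 events. A8i also had the lowest library total, and after scaling each library to the mean total the number of members was 8 and that of all genes was 203 instead of 670. The scaled number for genes with at least 6 events was not computed. Unscaled, the pattern also held in 21 of the 193 ZNF genes below the limit (10.9%). It held in 11 of 107 genes of other zinc finger families, such as ZBTB and ZC3H genes (10.3%). What part the lower total of A8i has in this pattern was not tested.

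In A8i-A compared with A8i, the members had 393 events (355 to 434) against 343, or 115% (98.9% to 133%), beside 110% for all genes. A8i-A was higher in 55 members, lower in 36 and equal in 29. These were 45.8% higher and 30.0% lower, beside 39.0% and 27.8% of genes with at least 6 events and 33.6% and 23.3% of all genes. It was at least 2-fold above A8i in 24 members, beside 18.1% of all genes and 12.6% of genes with at least 6 events, and at least 2-fold below in 15 (12.5%), beside 11.1% and 7.2%. Scaled, both counts were 15. After ZNF561 and ZNF266, ZNF211 had 6 more events in A8i-A than in A8i, and ZNF142 and ZNF268 had 4 more. ZNF384 had 5 fewer in A8i-A. ZNF202, a SCAN domain repressor of lipid transport genes, had 7 events in A8 against 7 in A8i, with 3 in A8i-A and 6 in A8i-B, lowest with ECM1a. ZNF718 had 2, 4, 0 and 6 events.

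In A8i-B compared with A8i, the members had 473 events (431 to 518) against 343, or 138% (120% to 159%), beside 118% (116% to 120%) for all genes and 115% (113% to 118%) for genes with at least 6 events. The ratios of both other sets lay below the interval of the members. ZNF514, ZNF561 and ZNF266 were singled out after their values were seen, and leaving them out had to lower the ratio. Without them the members had 428 events against 329, or 130% (112% to 151%), while the other sets were not trimmed. The difference between the ratios was not tested. A8i-B was higher in 61 members, lower in 21 and equal in 38. These were 50.8% higher and 17.5% lower, beside 44.3% and 23.7% of genes with at least 6 events and 38.0% and 20.2% of all genes. It was at least 2-fold above A8i in 28 members (23.3%), beside 20.4% of all genes and 14.6% of genes with at least 6 events, and at least 2-fold below in 6 (5.0%), beside 9.21% and 5.67%. Scaled to the mean library total, these counts of members were 19 and 7. ZNF561, ZNF266 and ZNF514 had 11, 10 and 10 more events in A8i-B than in A8i, the widest differences of this pair. ZNF142 had 8 more events. The antisense RNA ZNF529-AS1 had 1 event in A8 and 1 in A8i, beside 2 in A8i-A and 7 in A8i-B, whereas ZNF529, whose exons it overlaps on the other strand, had 1 event in A8i-B and 6 in A8i. In the exons that overlap, which of these 2 genes an event belongs to may depend on strand, whose use was not given in the sources used here.

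In A8i-A compared with A8i-B, the 2 isoform lines, the members stood at 83.1% (72.5% to 95.2%), and all genes at 93.6% (91.9% to 95.3%), inside that interval. A8i-A was lower in 62 members, higher in 26 and equal in 32. These were 51.7% lower and 21.7% higher, beside 37.3% and 28.5% of genes with at least 6 events and 32.4% and 25.0% of all genes. It was at least 2-fold below A8i-B in 18 members (15.0%), beside 16.2% of all genes and 10.7% of genes with at least 6 events, and at least 2-fold above in 11 (9.17%), beside 11.7% and 6.84%. After ZNF514, with 11 fewer events in A8i-A, the widest differences were ZNF718 with 6 fewer and ZNF76, ZNF618, ZNF131 and ZNF529-AS1 with 5 fewer. ZNF76, a close relative of the promoter activator ZNF143, had 6 events in A8, then 3 in A8i, with 3 in A8i-A against 8 in A8i-B. ZNF131, which has a BTB domain, had 3, 5, 2 and 7 events, and ZNF618 had 5, 5, 2 and 7. ZNF718, ZNF131 and ZNF618 were lowest in A8i-A, and ZNF76 was lowest there and in A8i.

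Compared with A8, A8i-A stood at 89.7% (78.1% to 103%) and A8i-B at 108% (94.6% to 123%) over the members, beside 92.6% and 98.9% for all genes. A8i-A was at least 2-fold below A8 in 20 members (16.7%), beside 16.2% of all genes and 10.3% of genes with at least 6 events, and above in 10 (8.33%), beside 11.3% and 6.29%. Scaled, both counts were 10. A8i-B was at least 2-fold above A8 in 17 members (14.2%), beside 13% of all genes and 7.78% of genes with at least 6 events, and below in 12 (10.0%), beside 13.8% and 8.31%. ZNF827, which brings the NuRD complex to telomeres, had 2 events in A8 against 4 in A8i, with 5 in A8i-A and 8 in A8i-B. ZNF446 had 1, 1, 4 and 6 events, and ZNF26 had 2, 2, 2 and 6. ZNF839 was lower in A8i-B, with 8, 5, 5 and 2 events. ZNF592, a member of a zinc finger complex with ZMYND8, had 5, 1, 0 and 1 events, and ZNF720 had 5, 1, 0 and 0, both with most of their events in A8. All 6 pairs share libraries and are not independent.

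Wide ranges between libraries were more frequent among the members than among all genes past the same limit. The range from the lowest to the highest library was 3 events or more in 66 members (55.0%), where it was in 41.6% of genes with at least 6 events, and 5 or more in 22 (18.3%), where it was in 14.0%. It was 0 in 5 members (4.17%), where it was in 10.3% of genes with at least 6 events and 15.3% of all genes. These were ZNF207, ZNF24, ZNF496, ZNF664 and ZNF780A, of which ZNF207 takes part in mitotic spindle attachment. ZNF664 had 4 events and the other 4 had 2 events in every library. A8i-B alone was highest in 31 members (25.8%), where it was in 17.1% of genes with at least 6 events, and alone lowest in 6 (5.0%), where it was in 8.88%. A8i-A alone was lowest in 25 (20.8%), where it was in 12.5%. A8i alone was lowest in 28 (23.3%), where it was in 20.5%. A8 alone was lowest in 16 (13.3%), where it was in 8.63%. It was alone highest in 24 of the 120 members, where it was in 17.1%. A8i alone was highest in 8.33% of members, where it was in 9.01%, and A8i-A alone in 12.5%, where it was in 12.7%. A8, A8i and A8i-A were thus each alone lowest in a larger share of members, so this was not particular to an isoform line. No test was made of these shares. In 18 members at least 1 library was at 0, 3 of them in A8 and 8 in A8i, beside 5 in A8i-A and 3 in A8i-B, with ZNF720 at 0 in both A8i-A and A8i-B. All libraries had an event in 85.0% of members and in 91.3% of genes with at least 6 events. The shares of members at 0 were 2.5% for A8, 6.67% for A8i, 4.17% for A8i-A and 2.5% for A8i-B, where those of genes with at least 6 events were 1.43%, 4.39%, 2.39% and 1.60%.

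Other patterns over the 4 libraries, with at least 2-fold between the library or libraries named and each of the rest, held few members. The brackets after each number of members hold the share of all genes, then that of genes with at least 6 events. Of the 120 members, 1 is 0.833%, 2 are 1.67%, 3 are 2.5%, 4 are 3.33% and 6 are 5%. A8 was above the 3 others in 4 members (5.85% and 2.13%), ZNF252P, ZNF592, ZNF621 and ZNF720, and below them in 3 (2.34% and 1.77%), ZNF346, ZNF414 and ZNF791. A8i was above in 1 (3.1% and 0.886%), ZNF639 with 3 events against 1 in every other library. A8i-A was above in 2 (4.34% and 1.22%), ZNF346 and ZNF544, and below in 6 (3.96% and 2.98%), ZNF562, ZNF592, ZNF613, ZNF618, ZNF718 and ZNF92. A8i-B was above in 4 (5.72% and 2.24%), ZNF26, ZNF449, ZNF461 and ZNF529-AS1, and below in 4 (2.43% and 1.9%), ZNF343, ZNF529, ZNF711 and ZNF839. ZNF711, which works with the histone demethylase PHF8 and is mutated in X-linked intellectual disability, had 4 events in A8 and 0 in A8i-B. A8 and A8i-A were above A8i and A8i-B in 2 (2.75% and 1.13%), ZNF343 and ZNF385A, and A8 and A8i were above both cDNA lines in 1 (1.69% and 0.773%), ZNF720.

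The following members have a described role in RNA handling, translation, promoter activation or chromatin, and had at most 8 events in a library. ZNF598, the ubiquitin ligase that marks stalled ribosomes, had 8 events in A8, then 5 in A8i, with 6 in A8i-A against 6 in A8i-B. ZNF638, which binds RNA and recruits the HUSH silencing complex, had 4, 6, 6 and 7 events. ZNF326, a subunit of the DBIRD complex that couples elongation to splicing, had 6, 3, 3 and 3 events, highest in A8. ZNF346, which binds double-stranded RNA, had 0, 2, 5 and 2 events, highest in A8i-A. ZNF143, an activator of promoters including those of small nuclear RNA genes, had 3, 3, 1 and 2 events. ZNF274, which recruits SETDB1 to zinc finger gene clusters, had 2, 2, 1 and 2 events, and ZNF445, a regulator of imprinting, had 2, 1, 3 and 1.

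The corepressor and heterochromatin partners of KRAB zinc finger proteins, 18 of 21 of which had a row, had 61 events in A8 against 46 in A8i, with 50 in A8i-A and 65 in A8i-B. A8i stood at 75.4% of A8 (50.3% to 112%), and A8i-B at 141% of A8i (95.4% to 211%). TRIM28 had 2 events in every library. SETDB1 had 6 events in A8 and 4 in A8i, beside 4 in A8i-A and 5 in A8i-B. CHD3, the paralogue of CHD4 that TRIM28 binds, had 8, 8, 12 and 6 events. DNMT1, the maintenance DNA methyltransferase, had 5, 3, 3 and 8 events. Of the HUSH subunits, PPHLN1 had 7, 4, 6 and 8 events, MPHOSPH8 had 5, 3, 4 and 6, and TASOR, listed as FAM208A, had 4, 3, 3 and 5. The 3 HUSH subunits were thus each highest in A8i-B, by 1 event over A8. Other zinc finger families, 107 genes such as ZBTB and ZC3H genes, had 226 events in A8, then 192 in A8i, with 197 in A8i-A against 244 in A8i-B, where A8i-B stood at 127% of A8i (105% to 154%).

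In the GENCODE annotation, 114 of the 120 members were protein-coding. The symbol rule also took in the antisense RNAs ZNF529-AS1, ZNF561-AS1 and ZNF337-AS1 and the pseudogenes ZNF767P, ZNF252P and ZNF702P, and these 6 genes together had 19 events in A8 against 8 in A8i, with 12 in A8i-A and 22 in A8i-B. By pattern, which can miss divergent boxes, a KRAB box was found in 58 of the 114 proteins (50.9%) and in 110 of the 185 proteins of the ZNF genes below the limit (59.5%). Members with a KRAB box had 213, 158, 199 and 225 events and those without had 206, 177, 182 and 226, so the order of the libraries was A8i-B, A8, A8i-A and A8i in both. The members had a median of 9 C2H2 fingers (0 to 36), with none found in ZNF185 and ZNF839, and the ZNF genes below the limit had 11.

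Chromosome 19 held 44 of the members (36.7%) and 103 of the ZNF genes below the limit (53.4%), beside 7.10% of all genes. The 44 had 129 events in A8 and 104 in A8i, beside 147 in A8i-A and 166 in A8i-B. The 76 elsewhere had 309, 239, 246 and 307. A8i-A was thus above A8 on chromosome 19, where ZNF561 and ZNF266 lie, and below it elsewhere. The 4 members on chromosome 20 had 15, 3, 10 and 10 events, and the 4 on chromosome 2, which include ZNF514 and ZNF142, had 30, 14, 19 and 33. Other chromosomes with 4 members differed. Those on chromosome 5 had 9, 11, 11 and 15 events, and those on chromosome 10 had 12, 14, 12 and 14. Those on chromosome 17 had 13, 6, 6 and 13, and those on chromosome 3 had 9, 7, 6 and 5. Event numbers by chromosome were not computed for all genes.

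The number of annotated transcripts, which the selection did not use, was higher in members, with a median of 9.5 per gene against 6 in the ZNF genes below the limit. The same was seen over all genes, with a median of 12 with at least 6 events and 7 below. Across the 313 ZNF genes the sum of events had a Spearman rho of 0.46 with the number of transcripts and of 0.067 with the length of the longest transcript. Across 9818 annotated genes the rho with the number of transcripts was 0.47. Genes are not independent replicates, and annotation depth and expression are shared by the points. ZNF266 had the most events, 53, with 8 annotated transcripts. Exons of 68 of the 120 members overlapped those of another annotated gene, 45 of them a gene on the opposite strand, and their values are uncertain to that extent. In 8 members over 20% of the 50-base sequences occurred in another gene, ZNF286A with its near-copy ZNF286B and ZNF446 with ZNF324 among them.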

How the data were processed

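RNA was sequenced from 4 HeyA8 lines, with 1 library each. Per the study's methods the authors isolated RNA with TRIzol, mapped paired-end reads to hg19 with TopHat and estimated FPKM with Cufflinks; the submitters' processing notes name Cufflinks 2.2.1, Trim Galore and FastQC, and list GRCm38, a mouse build, as the genome. The deposited values are whole-number event counts per gene, not read counts, and the counting program, the kind of event, its filters and its use of strand were not given in the sources used here. No column of per-sample values was left unused.

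The members, lists and patterns were chosen with earlier results of these data known. Genes named singly were ZNF514, those with the 10 highest sums, those with the 5 largest differences in each direction of a pair (ties up to 8), those at 0 in a library and those with a known role listed by function. Genes named as like ZNF514, as examples at the limit, as neighbours on chromosome 19, as differing by few events between libraries, in the 3-library patterns or for shared sequence were added after values were seen.

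Each ratio of a pair of totals was given the 95% exact interval of Clopper and Pearson, with the sum of both held fixed. A gene was counted as apart at 2-fold or more on the (events + 1) scale, which understates the change of genes with few events. The arithmetic was checked on simulated event numbers. Genes were joined by Ensembl identifier to GENCODE v44 on GRCh37 (9818 of 9885, and 313 of 313 ZNF genes). Fingers and KRAB boxes were found by pattern in the longest coding sequence of each gene, in the annotated frame, and shared sequence as exonic 50-mers. Python 3.11.15, scipy 1.17.1, pandas 2.3.3 and pysam 0.24.0 were used. Alternatives were members with at least 5 or 8 events, shares of the library total, members with events in all libraries, protein-coding members, a pseudocount of 0.5, a difference of at least 2 events and scaling to the mean total; scaled patterns and totals without ZNF514, ZNF561 and ZNF266 were added after the data were seen.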

Additional observations from a re-analysis of the deposited data

Results flagged for a closer look

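In all, 3 members had opposite differences from A8i in the 2 isoform lines, by at least 2 events each. ZNF131 had 3 fewer events in A8i-A than in A8i (-3) and 2 more in A8i-B. ZNF618 had 3 fewer (-3) and 2 more, and ZNF718 had 4 fewer (-4) and 2 more. These were 3 of 120 members (2.5%), beside 93 of 9885 genes (0.941%) and 93 of the 5307 genes with at least 6 events (1.75%), and whether the differences from A8i differ between the lines was not tested.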

How the results depend on the processing

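No paired analysis was possible because each line had 1 library. With 1 library per line no replicate could be left out, and event numbers this low limit single genes: most ratios of a gene carry wide intervals. Of the values that answer a comparison, 104 changed by less than their counting interval, or by less than 1.5 times for a count, under an alternative, and 41 changed by more, among them the median log2 ratio of A8i-B to A8i, which changed sign when scaled. Scaling each library to the mean total gave 384 member events in A8i; taken as shares of the library totals, A8i stood at 93.5% of A8 and A8i-B at 117% of A8i. Scaled, A8 was at least 2-fold above A8i in 17 members in place of 27 and above A8i-A in 10 in place of 20, A8i-A was above A8i in 15 in place of 24, A8i was below the 3 others in 8 in place of 15, and both cDNA lines were above A8 and A8i in 1 in place of 2. The scaled median log2 ratios were 0.13 for A8i to A8, -0.10 for A8i-A to A8i, -0.062 for A8i-B to A8i and 0.074 for A8i-A to A8, in place of 0, 0, 0.15 and 0; over all genes scaling moved the median from 0 to 0.13 for A8i to A8 and to -0.12 for A8i-B to A8i. With at least 8 events the members had 381, 304, 352 and 413 events in A8, A8i, A8i-A and A8i-B, and 3 were 2-fold higher in A8i than in A8, 3 higher in A8i than in A8i-B, 9 in A8i than in A8i-A, 13 in A8 than in A8i-A and 11 in A8i-B than in A8. With events in all 4 libraries the members had 430 events in A8i-B, and 16 were 2-fold higher in A8 than in A8i, 3 the converse, 14 in A8i-A than in A8i, 9 the converse, 3 in A8i than in A8i-B, 7 in A8i-A than in A8i-B, 11 the converse, 6 in A8i-A than in A8, 12 the converse and 10 in A8i-B than in A8. By a difference of at least 2 events, 20 members were higher in A8i than in A8. Of the 5307 genes with at least 6 events, 581 were. In A8i over A8i-B there were 10, beside 603. In A8i-A over A8i-B there were 19, beside 791, and 30 the converse, beside 1081. In A8i-A over A8 there were 19, beside 758, and 33 the converse, beside 1097. In A8i-B over A8 there were 32, beside 921, and 21 the converse, beside 934. The counts of pairs that were scaled, with at least 8 events or with events in all 4 libraries were made for members only. Without ZNF514, ZNF561 and ZNF266 the members had 428 events in A8i-B, or 130% of A8i in place of 138%. These genes had the widest differences of that pair, so leaving them out had to lower the ratio.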
